A study of Mus musculus with 137 samples.

Results

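The 76 genes described here are named as mitochondrial ribosomal proteins, and each was included by its name. The family itself was chosen with earlier results of these data known. Every gene whose symbol begins with Mrpl or Mrps followed by a number was taken, and where a gene had several probes it was read from the one with most counts over all libraries. Their 107 probes were among 30146 probes for 21450 genes. Mrpl33 and Mrps18c were not analysed here. RNA came from crypts and villi scraped from formalin-fixed, paraffin-embedded sections of the duodenum of female wildtype B6C3F1 mice. The mice drank water with 0, 0.1, 1.4, 5, 20, 60 or 180 ppm hexavalent chromium, Cr(VI), given as sodium dichromate dihydrate, for 7 or 90 days. The libraries, from 71 mice, form 28 groups of compartment, concentration and duration, with 5 libraries in most groups, 6 in crypts at 0.1 ppm for 7 days, and 4 in untreated villi at 90 days and in villi at 5, 20 and 180 ppm for 7 days. Ages of the mice were not given in the sources used here. The comparisons ask how RNA of these genes changed with the concentration of Cr(VI), and whether it did so differently in the proliferating crypt and in the villus, which faces the lumen.

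Mitochondria keep their own ribosomes, which translate the few proteins encoded by mitochondrial DNA, all of them subunits of oxidative phosphorylation. The ribosomal proteins themselves are encoded in the nucleus, made in the cytosol and imported. The large subunit, whose genes are named Mrpl, joins amino acids, and the small subunit, whose genes are named Mrps, reads the messenger RNA. Some of these proteins descend from bacterial ribosomes and others were added during the evolution of mitochondria. In the intestine, cells divide in the crypt, mature as they move up the villus and are shed from its tip.

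The 75 members tested comprised 29 large-subunit proteins with a bacterial counterpart, 20 large-subunit proteins found only in mitochondrial ribosomes, 15 small-subunit proteins with a bacterial counterpart and 10 without. The large-subunit set without a bacterial counterpart includes Mrps30 and Mrps18a, which sit in the large subunit despite their names. The remaining member, Mrps36, has kept its name but is now assigned to the 2-oxoglutarate dehydrogenase complex of the citric acid cycle. Mrpl44, whose product binds RNA in the large subunit, failed the filter on low counts. Its probe was at 0 in 116 libraries, and its highest count was 17.

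All 76 genes were found in the GENCODE M21 annotation of GRCm38, where they lie on 17 chromosomes. Since they are spread over the genome, promoters rather than a locus are shown, given here for the 4 members with the broadest response to Cr(VI). Of 8 members that were called higher in 6 of the 24 comparisons of an exposed with an untreated group, these had the most calls for the dose trend among those with a RefSeq promoter sequence. Each window runs from 250 bases before to 50 bases after the RefSeq start on GRCm38.p6, read 5′ to 3′ on the strand of the gene. Capitals mark a match to the core site of ETS factors such as GABPA, which is also called NRF-2 and is known for its sites in nuclear genes of mitochondrial proteins. The windows are chr19:3282792-3283091 on the plus strand for Mrpl21, chr5:96209865-96210164 on the plus strand for Mrpl1, chr13:100744610-100744909 on the minus strand for Mrps36 and chr16:92058086-92058385 on the plus strand for Mrps6.
Mrpl21: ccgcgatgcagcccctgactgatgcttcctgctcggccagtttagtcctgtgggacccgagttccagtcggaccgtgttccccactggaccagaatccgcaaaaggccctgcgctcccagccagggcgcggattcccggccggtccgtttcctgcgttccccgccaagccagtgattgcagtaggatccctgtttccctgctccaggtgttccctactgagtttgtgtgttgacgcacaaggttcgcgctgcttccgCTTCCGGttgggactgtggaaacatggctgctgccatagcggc
Mrpl1: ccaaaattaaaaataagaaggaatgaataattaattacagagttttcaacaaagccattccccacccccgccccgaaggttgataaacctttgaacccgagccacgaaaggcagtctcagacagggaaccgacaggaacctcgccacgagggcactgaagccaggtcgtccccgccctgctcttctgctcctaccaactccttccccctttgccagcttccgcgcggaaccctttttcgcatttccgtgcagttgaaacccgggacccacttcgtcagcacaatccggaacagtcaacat
Mrps36: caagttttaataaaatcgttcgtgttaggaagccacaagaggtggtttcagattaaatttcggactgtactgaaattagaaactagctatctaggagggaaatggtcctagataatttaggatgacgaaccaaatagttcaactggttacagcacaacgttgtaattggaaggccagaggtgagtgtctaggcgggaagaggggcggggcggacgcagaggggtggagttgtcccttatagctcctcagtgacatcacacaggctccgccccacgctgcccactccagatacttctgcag
Mrps6: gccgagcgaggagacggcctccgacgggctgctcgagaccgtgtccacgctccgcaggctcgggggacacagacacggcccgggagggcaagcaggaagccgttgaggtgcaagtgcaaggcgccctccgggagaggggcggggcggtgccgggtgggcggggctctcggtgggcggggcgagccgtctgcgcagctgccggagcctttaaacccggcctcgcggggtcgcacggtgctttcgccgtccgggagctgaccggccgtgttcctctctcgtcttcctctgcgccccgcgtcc

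RefSeq gave a window for 67 of the 76 members. The ETS core CCGGAAG, searched on both strands, was in 23 of 67 windows (34.3%), against 12.3% of 15870 windows of other genes of the table. The core ATGGCGG of YY1, a zinc finger factor, was in 13 windows (19.4%, against 5.55%), and the core GCATGCG of NRF-1, a regulator of nuclear genes for respiration, in 7 windows (10.4%, against 4.66%). The E-box CACGTG, bound by Myc among others, was in 4 windows (5.97%, against 8.26%). A match is a description of the letters and not of binding. After 90 days of 180 ppm in villi, 6 of the 23 members with an ETS core and 14 of the 44 without were called higher. None of the 4 motifs was found in the windows of Mrpl1, Mrps36 and Mrps6.

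Library totals ran from 1463938 to 7199801 counts, with a median of 3592983, and 55 to 76 members were detected in each. The labelled compartments were checked with marker lists. Proliferation, crypt base and Paneth cell transcripts were lower in villi than in crypts of untreated mice, except that at 7 days the villus library of mouse 48 resembled a crypt library and the crypt library of mouse 49 resembled a villus library. The 4 untreated villus libraries at 90 days were shallow, with totals from 1667014 to 2678299, and held few probes at equal depth (median 13894, against 17096 at 180 ppm). Levels are given below as CPM, which is the count scaled to a common library total by the TMM method of edgeR. In tissue scrapings, more RNA of these genes per cell and more cells that express them cannot be told apart. A member is called higher or lower where the edgeR quasi-likelihood test gave a Benjamini-Hochberg adjusted p under 0.1 over all 26365 probes tested. Log2 fold changes are edgeR's fitted values and are given ± SE.

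The summed level of the members had a higher median in crypts than in villi and higher medians in both at the high concentrations. After 90 days, untreated crypts had a median sum of 3523 CPM (range 3442 to 3860), and untreated villi had 2000.5 CPM (range 1853 to 2828). In crypts the sum had a median of 4220 CPM at 20 ppm, 5553 CPM at 60 ppm (range 5199 to 6075) and 5231 CPM at 180 ppm (range 4104 to 5835). All libraries at 60 and 180 ppm lay above every untreated crypt library, and the highest median was at 60 ppm. In villi the sum had a median of 2676 CPM at 5 ppm, 3450 CPM at 20 ppm (range 3197 to 3777), 4052 CPM at 60 ppm (range 3405 to 4398) and 3945 CPM at 180 ppm (range 2649 to 4254). From 20 ppm the ranges of exposed and untreated villi did not overlap, apart from the lowest library at 180 ppm. After 7 days the median in crypts went from 3252 CPM untreated (range 2729 to 3660) to 4069 CPM at 20 ppm (range 3887 to 4474), 4094 CPM at 60 ppm (range 2145 to 4657) and 3771 CPM at 180 ppm (range 3468 to 4616). Only at 20 ppm of these did the 7-day crypts not overlap the untreated ones. In villi it went from 2481 CPM (range 2012 to 3427) to 3713 CPM at 180 ppm (range 3174 to 4148). No test was made on the sums.

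**Figure D1:**
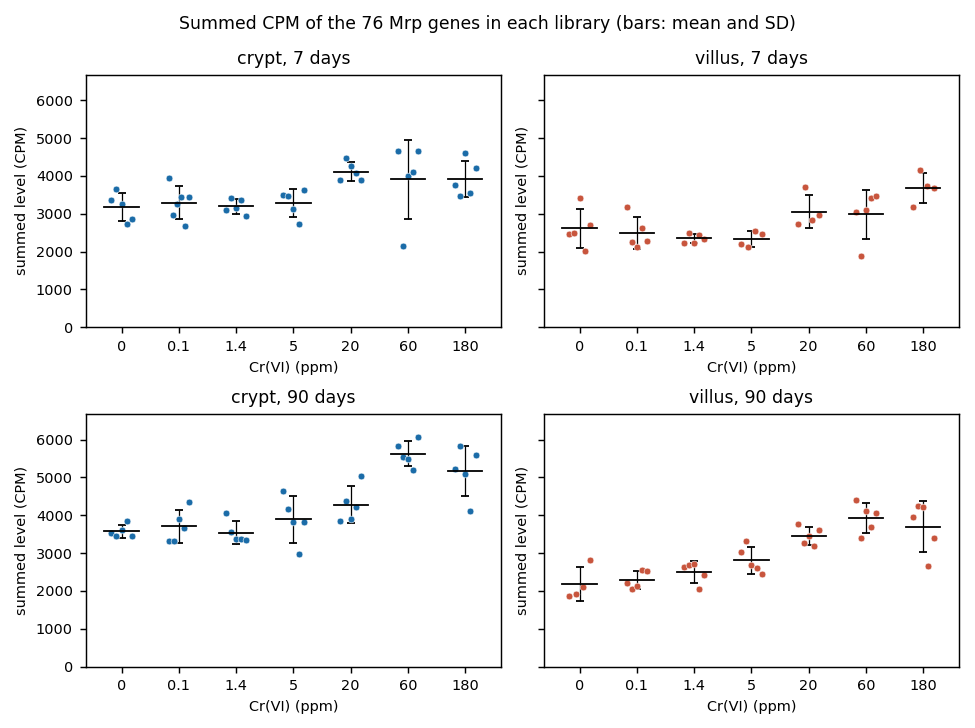
Summed level of the 76 members in each library (points, CPM) by concentration of Cr(VI) in drinking water, for crypts (blue) and villi (red) after 7 and 90 days, with bars for the mean and SD of each group. After 90 days the median went from 3523 to 5553 CPM for crypts and from 2000.5 to 4052 CPM for villi between the untreated and the 60 ppm groups.

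At 180 ppm for 90 days, 24 of 75 members were called higher in villi (32%, against 9.98% of the 18998 genes tested) and 1 lower, Mrps24 (lower in 4.77% of all genes). In crypts 12 were called higher (16%, against 4.34%) and none lower, with 20 at an unadjusted p under 0.05. At 180 ppm for 7 days, 9 were called higher in villi (12%, against 2.82%) and 2 in crypts (2.67%, against 1.16%), with none lower in either, where 28 and 11 had an unadjusted p under 0.05. The median log2 fold change over the members was 0.80 in villi and 0.39 in crypts at 90 days, and 0.54 and 0.22 at 7 days. Over all genes it was 0.17, 0.00, −0.10 and −0.04 in the same order. Most calls were among members with high counts. Of the 38 members at or above the members' median level of 23.2 CPM, 23 were called higher at 180 ppm in 90-day villi (60.5%, against 27.4% of all genes at that level), and of the 37 below it 1 was (2.7%, against 3.22%). Of the same 38 members, 28.9% were called higher in 90-day crypts (against 13.2%) and 21.1% in 7-day villi (against 7.69%). In 7-day crypts 1 of the 38 was (2.63%, against 3.04%), near the share of all genes at that level, and 1 of the 37 below (2.7%, against 0.431%).

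The test of a trend over the 7 concentrations called more members. In villi at 90 days 38 were called higher and 1 lower (18.8% and 8.62% of all genes), and in crypts at 90 days 26 higher and none lower (12% of all genes). In villi at 7 days 21 were called higher and 1 lower (6.42% and 8.52% of all genes), and in crypts at 7 days 11 higher and 1 lower (4.18% and 6.05% of all genes). Of the members, 4 were called higher for the trend in all 4 sets of groups, namely Mrpl21, Mrpl9, Mrps9 and Mrpl18, and 31 in none. Some counts rested on single libraries. The count of 12 for the 7-day crypt trend was 2 without mice 48 and 49, 5 without the crypt library of mouse 49 and 19 without that of mouse 47. At 180 ppm the 7-day villus count of 9 was 18 without the library of mouse 48, 5 without that of mouse 46 or 529 and 4 without that of mouse 47, and the 7-day crypt count of 2 ranged from 1 to 5 when 1 library was left out. The 90-day crypt count of 12 was 5 without the exposed library of mouse 484 and 7 without the untreated one of mouse 3, and the 90-day villus count of 25 was 15 without the untreated library of mouse 3.

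Many calls at 180 ppm were lost with the 0.1 ppm groups in place of the untreated ones. In 90-day crypts 2 of the 12 calls remained, Mrps6 and Mrps26 (higher in 1.48% of all genes), and those of Mrpl1, Mrpl13, Mrpl21, Mrpl22, Mrpl41, Mrpl9, Mrps16, Mrps23, Mrps31 and Mrps36 were lost. In 90-day villi 20 of 25 remained, and those of Mrpl39, Mrpl45, Mrpl58, Mrps24 and Mrps26 were lost. There 4 others were called, Mrpl50, Mrps17, Mrps30 and Mrps7 (higher in 8.78% of all genes). In 7-day villi 5 of 9 remained and 10 others were called (higher in 3.01% of all genes). In 7-day crypts neither call remained, and Mrpl21 was called higher (0.88, edgeR adjusted p = 0.0756) and Mrpl24 lower (−0.62, edgeR adjusted p = 0.0213) instead. Of all genes 1.3% were called higher there and 635 of 18998 lower, so 1 higher member is near the share of all genes. Trend calls remained without the untreated libraries. The trend over exposed groups alone called 30 members higher in 90-day crypts and 37 in 90-day villi (9.05% and 15.1% of all genes). At 7 days it called 7 higher in crypts and 22 in villi (4.12% and 6.91%), with 1 lower in each (1119 and 1535 of 18998 genes lower). On the 0.1 ppm base the members' median log2 fold change at 180 ppm in 90-day crypts was 0.47.

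**Figure D2:**
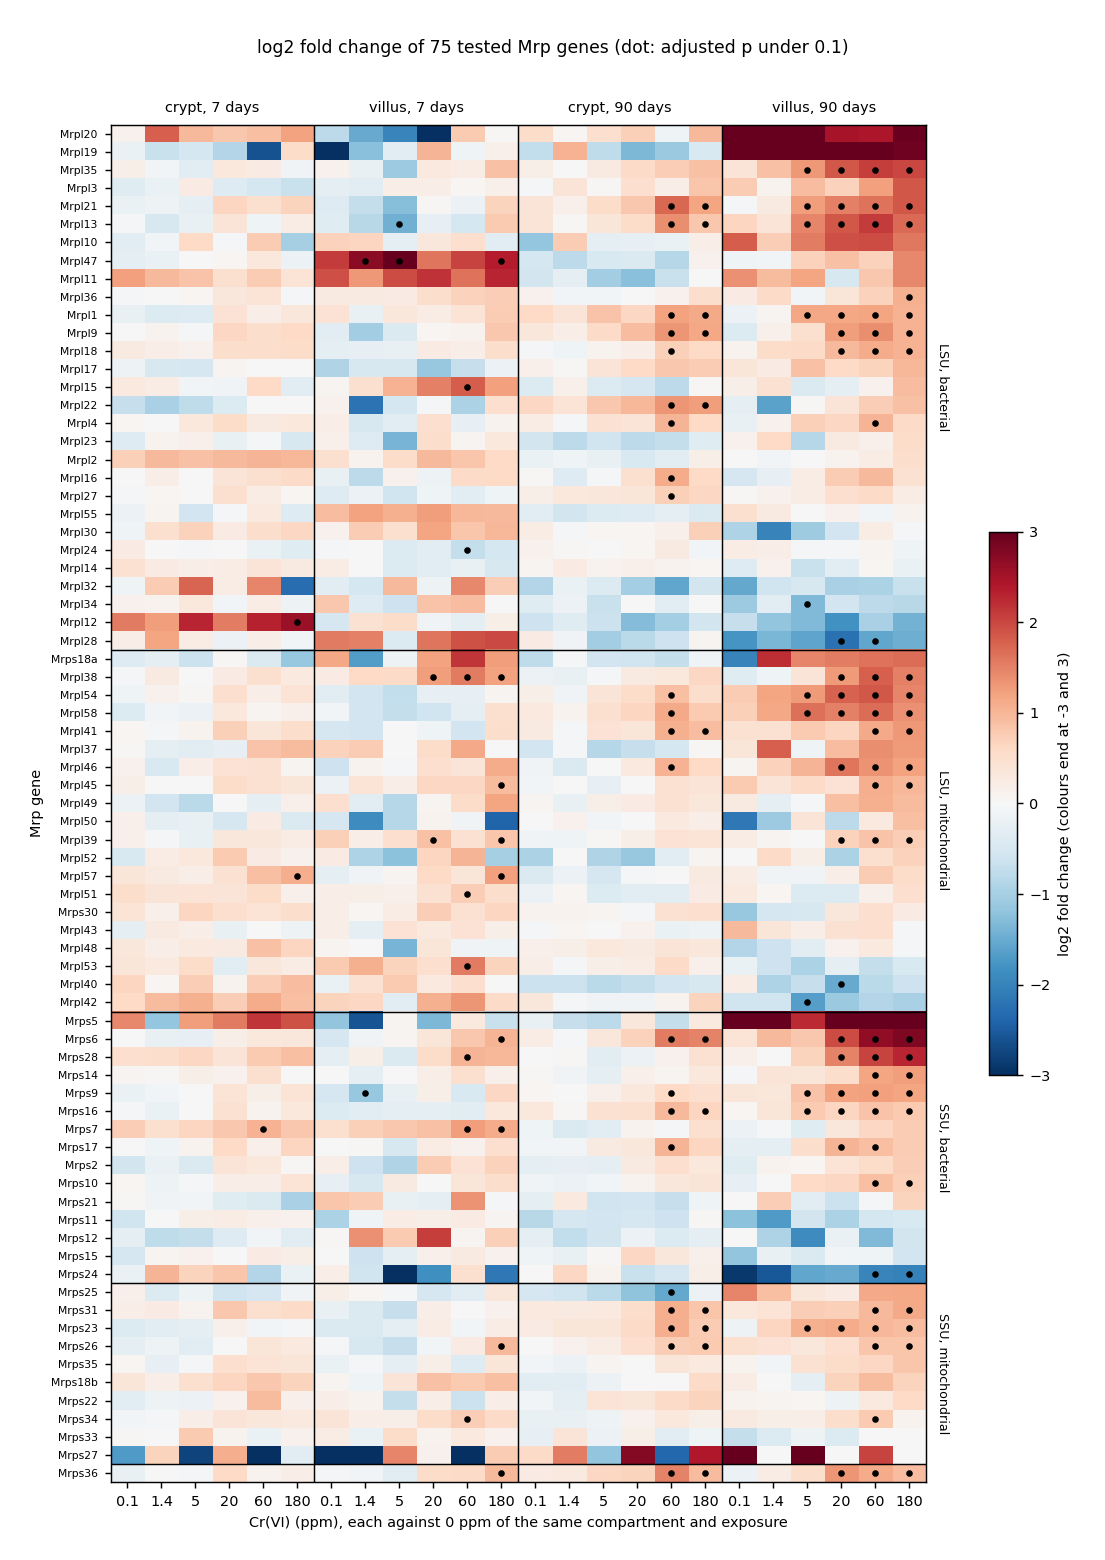
Log2 fold change of the 75 tested members (rows, grouped by role, LSU for the large and SSU for the small subunit) against untreated mice of the same compartment and duration at each concentration (columns), with red for higher, blue for lower and a dot for an adjusted p under 0.1. In 90-day villi dots appear from 5 ppm and in 90-day crypts from 60 ppm. At 180 ppm for 90 days the median was 0.80 in villi and 0.39 in crypts.

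Of the small-subunit proteins with a bacterial counterpart, Mrps6 had the smallest adjusted p of all members in 90-day crypts and villi. Mrps6, counterpart of bacterial S6, read 7.975, 9.196, 15.83 and 40.55 CPM in untreated villi at 90 days and 81.09, 86.52, 121.2, 163.9 and 211.5 CPM at 180 ppm. All exposed libraries lay above all untreated ones. The log2 fold change was 2.81 ± 0.36 (edgeR adjusted p = 2.6e-09), a 7.02-fold difference. Over the concentrations the group median of Mrps6 in these villi was 12.51, 15.92, 40.29, 29.36, 72.38, 119.4 and 121.2 CPM from 0 to 180 ppm. In crypts at 90 days Mrps6 read 41.22 to 63.85 CPM untreated (median 47.81) and 106 to 168.8 CPM at 180 ppm (median 153.3), again without overlap (log2 fold change 1.49 ± 0.29, edgeR adjusted p = 0.000158). In villi at 7 days it was higher by 1.03 ± 0.32 (edgeR adjusted p = 0.0405), from a mean of 38.7 ± 12.23 CPM (SD, n = 5) to 80.19 ± 14.81 CPM (SD, n = 4). Exons of Mrps6 share bases on the same strand with Slc5a3, a myo-inositol transporter. The Slc5a3 probe was also higher in villi at 90 days (log2 fold change 3.59 ± 1.03, edgeR adjusted p = 0.0109), while in crypts its difference was 0.51 ± 0.52 (edgeR adjusted p = 0.704). A second Mrps6 probe gave 2.12 in villi at 90 days (edgeR adjusted p = 2.96e-05).

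Mrps28, a relative of bacterial S1, read 0, 9.495, 11.88 and 36.34 CPM in untreated villi at 90 days and 36.92, 71.88, 78.11, 78.63 and 102.9 CPM at 180 ppm. The highest untreated and the lowest exposed library nearly met. The log2 fold change was 2.28 ± 0.42 (edgeR adjusted p = 1.93e-05). Mrps9, counterpart of bacterial S9, went from 53.84 ± 25.89 CPM (SD, n = 4) to 122.1 ± 20.39 CPM (SD, n = 5), without overlap (log2 fold change 1.18 ± 0.28, edgeR adjusted p = 0.00146), although its second probe gave 0.28 (edgeR adjusted p = 0.7). Mrps14 (1.25 ± 0.35), Mrps16 (0.80 ± 0.24) and Mrps10 (0.72 ± 0.27) were also called higher in these villi. In all, 6 of the 15 members of this role were called higher and 1 lower. The lower one, Mrps24, counterpart of bacterial S3, had few counts, at 10.67 ± 8.046 CPM (SD, n = 4) untreated and 2.715 ± 1.901 CPM (SD, n = 5) at 180 ppm with overlapping libraries (log2 fold change −2.04 ± 0.79, edgeR adjusted p = 0.083). Against the 0.1 ppm group its difference was 0.86 (edgeR adjusted p = 0.712), so its direction turned. Mrps12, which helps decode the messenger RNA, and Mrps2 did not pass the test at 180 ppm in any set. For the dose trend Mrps2 was called higher in 1 set. Mrps12 had log2 fold changes of −0.33, 0.70, −0.26 and −0.55, and Mrps2 had 0.04, 0.68, 0.31 and 0.74, in crypts and villi at 7 days and in crypts and villi at 90 days.

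Of the large-subunit proteins with a bacterial counterpart, Mrpl21 read 21.93, 31.04, 34.81 and 40.62 CPM in untreated villi at 90 days and 69.55, 96.08, 100.1, 107.9 and 210.5 CPM at 180 ppm, without overlap (log2 fold change 1.86 ± 0.36, edgeR adjusted p = 4.12e-05). In crypts at 90 days it read 36.62, 53.37, 72.58, 76.32 and 93.02 CPM untreated and 126.5, 131.7, 154.5, 166.9 and 172.1 CPM at 180 ppm, also without overlap (log2 fold change 1.18 ± 0.30, edgeR adjusted p = 0.00587). Its group medians in crypts at 90 days were 72.58, 91.15, 73.04, 118.3, 123.2, 211.6 and 154.5 CPM, so 60 ppm exceeded 180 ppm. The crypt call was lost against the 0.1 ppm group (0.80, edgeR adjusted p = 0.162). The second Mrpl21 probe was called higher in villi (edgeR adjusted p = 0.00896) but not in crypts (0.59, edgeR adjusted p = 0.178). Mrpl1, the protein of the stalk through which spent tRNA leaves, read 32.25, 53.54, 57.58, 60.93 and 70.24 CPM in untreated crypts at 90 days and 84.46, 118.5, 121.4, 132.0 and 143.3 CPM at 180 ppm. These did not overlap (log2 fold change 1.12 ± 0.27, edgeR adjusted p = 0.00426), but against the 0.1 ppm crypts the difference was 0.54 (edgeR adjusted p = 0.429). In villi Mrpl1 was higher by 1.04 ± 0.32 (edgeR adjusted p = 0.0219).

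Most second probes did not pass the test where the main probe did. Of 13 second probes whose gene was called at 180 ppm in 90-day villi, 11 had the same sign as the main probe and 3 were called, those of Mrps6, Mrpl21 and Mrpl45. In 90-day crypts 7 of 9 had the same sign and 1 was called, that of Mrps6. At 7 days none was called, with the same sign for 2 of 2 in villi and 0 of 1 in crypts, where the second probe of Mrpl12 gave −0.16.

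In villi at 90 days Mrpl35 (2.01 ± 0.43), Mrpl13 (1.71 ± 0.37) and Mrpl18 (1.03 ± 0.25), all counterparts of bacterial large-subunit proteins, were higher at 180 ppm without overlap of the groups. Mrpl13 went from 19.62 ± 9.704 CPM (SD, n = 4) to 65.79 ± 18.29 CPM (SD, n = 5), and Mrpl35 from 15.8 ± 2.604 CPM (SD, n = 4) to 63.18 ± 28.22 CPM (SD, n = 5). The exons of Mrpl18 share bases on the opposite strand with Tcp1, a subunit of the cytosolic chaperonin, whose probe was higher as well (1.75 ± 0.35, edgeR adjusted p = 7.65e-05). Mrpl9 was called higher in crypts and villi at 90 days (1.15 ± 0.30 and 1.04 ± 0.35). Mrpl12 and Mrpl10 belong to the stalk that recruits translation factors. Mrpl12 had an untreated level in 7-day crypts of 0, 0, 0, 0.4046 and 4.554 CPM and a level of 1.894, 5.661, 7.852, 9.404 and 15.99 CPM at 180 ppm. The groups overlapped at their edges (log2 fold change 2.60 ± 0.83, edgeR adjusted p = 0.0636), and the call was lost without any of 6 single libraries and against the 0.1 ppm group (1.035, edgeR adjusted p = 0.503). In villi at 90 days its difference was −1.42 ± 0.94 (edgeR adjusted p = 0.402). Mrpl10 and Mrpl11, also of the stalk base, and Mrpl3 did not pass the test at 180 ppm in any set, and the largest of their log2 fold changes was 2.29 ± 0.85 for Mrpl11 in 7-day villi (edgeR adjusted p = 0.117).

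**Figure D3:**
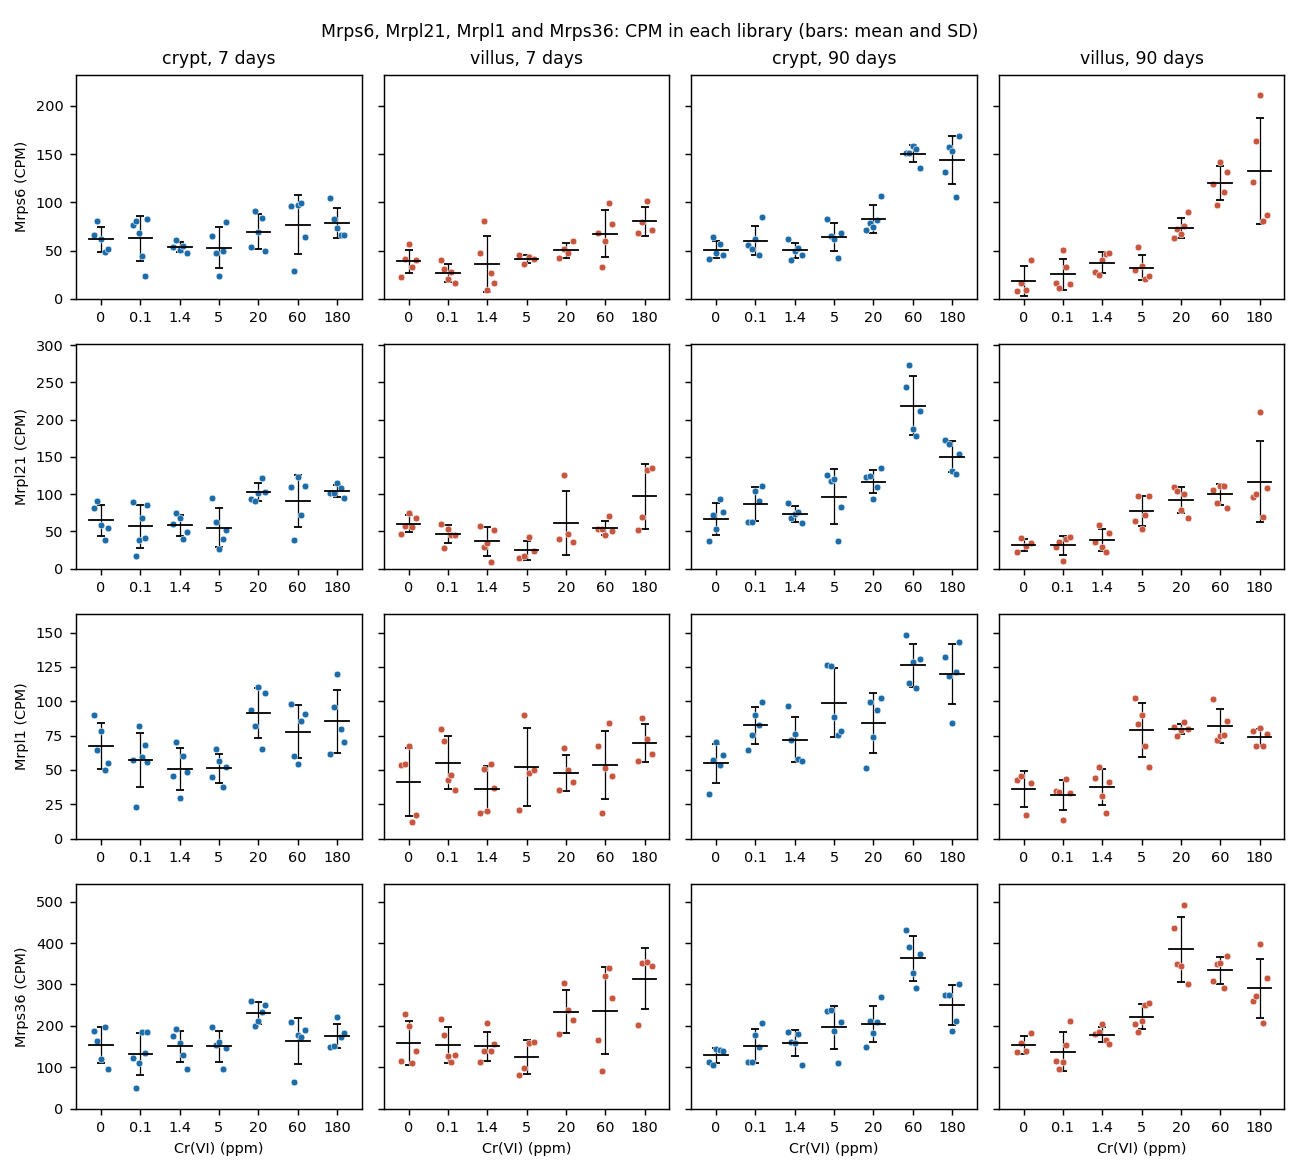
Level of Mrps6, Mrpl21, Mrpl1 and Mrps36 (rows, CPM) in each library (points) by concentration of Cr(VI), for crypts (blue) and villi (red) after 7 and 90 days, with bars for the mean and SD. After 90 days Mrps6 rose from a median of 12.51 to 121.2 CPM in villi and from 47.81 to 153.3 CPM in crypts at 180 ppm.

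Of the proteins particular to mitochondrial ribosomes, Mrpl54 was called higher in villi at 90 days at every concentration from 5 ppm. At 1.4 ppm it fell just short of the threshold (1.18 ± 0.28, edgeR adjusted p = 0.101), without overlap of the groups. Its group medians were 33.53, 57.06, 68.56, 70.72, 106.7, 111.4 and 90.19 CPM from 0 to 180 ppm, and the log2 fold change at 180 ppm was 1.46 ± 0.28 (edgeR adjusted p = 4.3e-05). Mrpl41 was higher at 90 days in villi (1.305 ± 0.36, edgeR adjusted p = 0.00747) and in crypts (0.92 ± 0.30, edgeR adjusted p = 0.0591). In the villi this call was lost without the untreated library of mouse 3 (edgeR adjusted p = 0.113). Mrpl58, a peptidyl-tRNA hydrolase that became part of the large subunit, was higher in villi at 90 days (1.36 ± 0.39, edgeR adjusted p = 0.0105), as were Mrpl38, Mrpl45, Mrpl39 and Mrpl46. Mrps23, Mrps26 and Mrps31 of the small subunit were higher at 90 days in both compartments, by 0.76, 0.78 and 0.83 in crypts, and in villi by 0.92 for Mrps23 and 0.84 for Mrps26, with Mrps31 going from 39.81 ± 17.3 CPM (SD, n = 4) to 89.56 ± 32.69 CPM (SD, n = 5). Mrps30, Mrps18a, Mrps18b and Mrps22 did not pass the test in any set at 180 ppm, with log2 fold changes from −1.13 to 1.67. For the dose trend, however, Mrps18b was called higher in 2 sets and Mrps30 in 1. Against the 0.1 ppm villi at 90 days Mrps30 was called higher at 180 ppm (1.38, edgeR adjusted p = 0.032).

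Mrpl57 led the response at 7 days. In crypts it read 52.79, 55.11, 58.17, 60.91 and 85.27 CPM untreated and 81.48, 110.8, 116.1, 148.6 and 206.7 CPM at 180 ppm, with 1 untreated library above the lowest exposed one (log2 fold change 1.09 ± 0.29, edgeR adjusted p = 0.0139). Against the 0.1 ppm crypts the difference was 0.73 (edgeR adjusted p = 0.145). In villi it read 39.05, 39.89, 47.22, 65.29 and 67.44 CPM untreated and 67.33, 109.4, 123.8 and 191 CPM at 180 ppm (log2 fold change 1.23 ± 0.31, edgeR adjusted p = 0.00668). At 90 days its medians at 0 and 180 ppm were 89.88 and 120.6 CPM in crypts and 48.87 and 46.31 CPM in villi. It was not called there in any comparison of an exposed with an untreated group. For the dose trend, however, Mrpl57 was called higher in 3 of 4 sets, so in 90-day libraries as well. Mrps26 in 7-day villi read 29.78, 38.88, 41.23, 45.05 and 55.16 CPM untreated and 64.35, 84.85, 84.87 and 97.48 CPM at 180 ppm, without overlap (log2 fold change 0.98 ± 0.27, edgeR adjusted p = 0.0179). Mrps7, Mrpl39, Mrpl38, Mrpl47 and Mrpl45 completed the calls in these villi. Of these 5 only Mrpl45 was also called against the 0.1 ppm villi (1.11, edgeR adjusted p = 0.027). There Mrps7 gave 0.63 (edgeR adjusted p = 0.35), Mrpl38 0.96 (edgeR adjusted p = 0.17), Mrpl39 0.12 (edgeR adjusted p = 0.871) and Mrpl47 0.26 (edgeR adjusted p = 0.907). Mrpl47 rested on few counts, at 0 to 8.639 CPM untreated and 3.931 to 21.14 CPM at 180 ppm.

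Mrps36, the citric acid cycle protein, was called higher at 180 ppm in 3 of 4 sets, as were Mrps6 and Mrps26. It read 109.8, 115.1, 138.0, 200.4 and 227.6 CPM in untreated 7-day villi and 203.1, 344.4, 351.4 and 355.2 CPM at 180 ppm, where 3 of 4 exposed libraries lay above all untreated ones (log2 fold change 0.98 ± 0.26, edgeR adjusted p = 0.00947). At 90 days it was higher by 0.96 ± 0.24 in crypts (edgeR adjusted p = 0.00687) and by 0.92 ± 0.26 in villi (edgeR adjusted p = 0.0113). The annotation names 3 processed pseudogenes of Mrps36, so a probe on shared sequence could read either.

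Lower concentrations gave few calls at 7 days, and 5 ppm was the lowest with a call in 90-day villi. In crypts at 7 days Mrps7 was called higher at 60 ppm (1.04 ± 0.30, edgeR adjusted p = 0.0532, against 0.858% of all genes higher). No member was called there at 0.1, 1.4, 5 or 20 ppm by edgeR, where 4, 3, 5 and 12 had an unadjusted p under 0.05 and 0.0158%, 0.00526%, 0.0158% and 0.274% of all genes were called. In villi at 7 days no member was called at 0.1 ppm by edgeR, where 4 had an unadjusted p under 0.05 and 0% of all genes were called. Mrpl47 was called higher at 1.4 and 5 ppm (0.437% and 0.0947% of all genes), with Mrps9 lower at 1.4 ppm, from 100.4 ± 41.63 to 46.17 ± 18.16 CPM (SD, n = 5 each, 1.2% of all genes lower), and Mrpl13 lower at 5 ppm (−1.45 ± 0.38, 0.305% of all genes lower). Mrpl39 and Mrpl38 were called higher at 20 ppm (1.13% of all genes). At 60 ppm 7 were called higher (against 3.03% of all genes), led by Mrpl38 (1.55 ± 0.38), and Mrpl24 was lower, from 257.6 ± 60.04 to 156.3 ± 34.17 CPM (SD, n = 5 each, 4% of all genes lower). Mrpl24, the counterpart of bacterial L24, was also the member called lower for the trend in crypts and villi at 7 days. The 14 villus calls at 0.1 to 60 ppm became 26 without the untreated library of mouse 50, 6 without that of mouse 47 and 9 without that of mouse 46.

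In crypts at 90 days no member was called at 0.1 to 20 ppm, where 1, 0, 4 and 14 members had an unadjusted p under 0.05. Of all genes, 0.00526% were called at 5 ppm and 0.626% at 20 ppm, and 0% at 0.1 and 1.4 ppm. At 60 ppm 21 were called higher (28%, against 11.2% of all genes), more than at 180 ppm, and Mrps25 lower (−1.53 ± 0.58, 4.5% of all genes lower). The leading calls at 60 ppm were Mrps36 (1.50 ± 0.24), Mrpl21 (1.72 ± 0.30) and Mrps6 (1.56 ± 0.29). In villi at 90 days no member was called at 0.1 or 1.4 ppm, with 10 at an unadjusted p under 0.05 in each and 0.0263% and 0.0421% of all genes called. Mrpl54 fell just short at 1.4 ppm (1.18 ± 0.28, edgeR adjusted p = 0.101). At 5 ppm 9 were called higher (12%, against 8.84% of all genes), a share near that of all genes, while the median over the members was 0.22 and that over all genes 0.54. Mrpl54 (1.28 ± 0.28), Mrpl58 (1.65 ± 0.39) and Mrps23 (1.06 ± 0.26) led, and Mrpl34 (−1.32 ± 0.50) and Mrpl42 (−1.66 ± 0.64) were lower (3.05% of all genes). At 20 ppm 18 were called higher (24%, against 11.5%), with Mrpl28 (−2.23 ± 0.67) and Mrpl40 (−1.505 ± 0.53) lower (4.19% of all genes). At 60 ppm 26 were called higher (34.7%, against 11.6%), with Mrps24 (−1.99 ± 0.78) and Mrpl28 (−1.57 ± 0.62) lower (4.94% of all genes). The exposed groups of each set share their untreated libraries, so these counts are not independent of each other.

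Between untreated crypts and villi, the members called were nearly all higher in crypts. At 90 days 24 members were higher in crypts (32%, against 7.95% of all genes) and 1 in villi, Mrpl28 (−1.69 ± 0.61, edgeR adjusted p = 0.0717, against 3.76% of all genes). Mrps9 read 101.8, 136.8, 137.9, 176.8 and 204.7 CPM in crypts and 30.65, 32.71, 71.28 and 80.71 CPM in villi, without overlap (log2 fold change 1.49 ± 0.28, edgeR adjusted p = 0.000108). Mrpl13 read 42.19 to 96.49 CPM in crypts and 10.47 to 33.28 CPM in villi, also without overlap (1.79 ± 0.37, edgeR adjusted p = 0.000406), and Mrps28 read 35.38 to 73.57 CPM and 0 to 36.34 CPM (1.85 ± 0.42, edgeR adjusted p = 0.00147). Without the villus library of mouse 3 the count of 25 became 16, and with the 0.1 ppm groups in place of the untreated ones it was 28, all higher in crypts (10.8% of all genes). There Mrpl28 turned to 0.33 (edgeR adjusted p = 0.822). With mouse as a block, Mrpl28 was not called at 90 days in untreated mice, and all members called were higher in crypts. At 7 days no member passed the edgeR test (0.726% of all genes did), 14 had an unadjusted p under 0.05, DESeq2 called 5, and 4 passed without mice 48 and 49. With mouse as a block 3 passed, Mrpl47 (2.54), Mrpl55 (1.62) and Mrpl38 (1.03), all higher in crypts, so the pairing changed this call.

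At 180 ppm fewer members than in untreated mice were called between compartments at 90 days. At 90 days 12 members were higher in crypts (16%, against 5.63% of all genes) and none in villi, led by Mrps26 (0.95 ± 0.25), Mrps34 (0.86 ± 0.24) and Mrps9 (0.81 ± 0.24). At 7 days Mrpl37 was higher in crypts (2.40 ± 0.79) and Mrps36 in villi (−0.84 ± 0.25), against 4.53% and 4.47% of all genes. With mouse as a block these members alone passed at 7 days, while Mrpl47, Mrpl55 and Mrpl38 did in untreated mice. Whether 180 ppm gave more or fewer calls at 7 days thus depended on the pairing. At 90 days the block fit called more than 12 members at 180 ppm, all higher in crypts. The effect of 180 ppm itself was not shown to differ between compartments. The interaction called no member at either duration in edgeR, with 4 and 7 at an unadjusted p under 0.05 at 7 and 90 days (0.00526% and 0.263% of all genes called), and none by DESeq2. With mouse as a block Mrps28 alone passed at 90 days, with a 1.92 larger log2 fold change in villi (edgeR adjusted p = 0.0217).

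**Figure D4:**
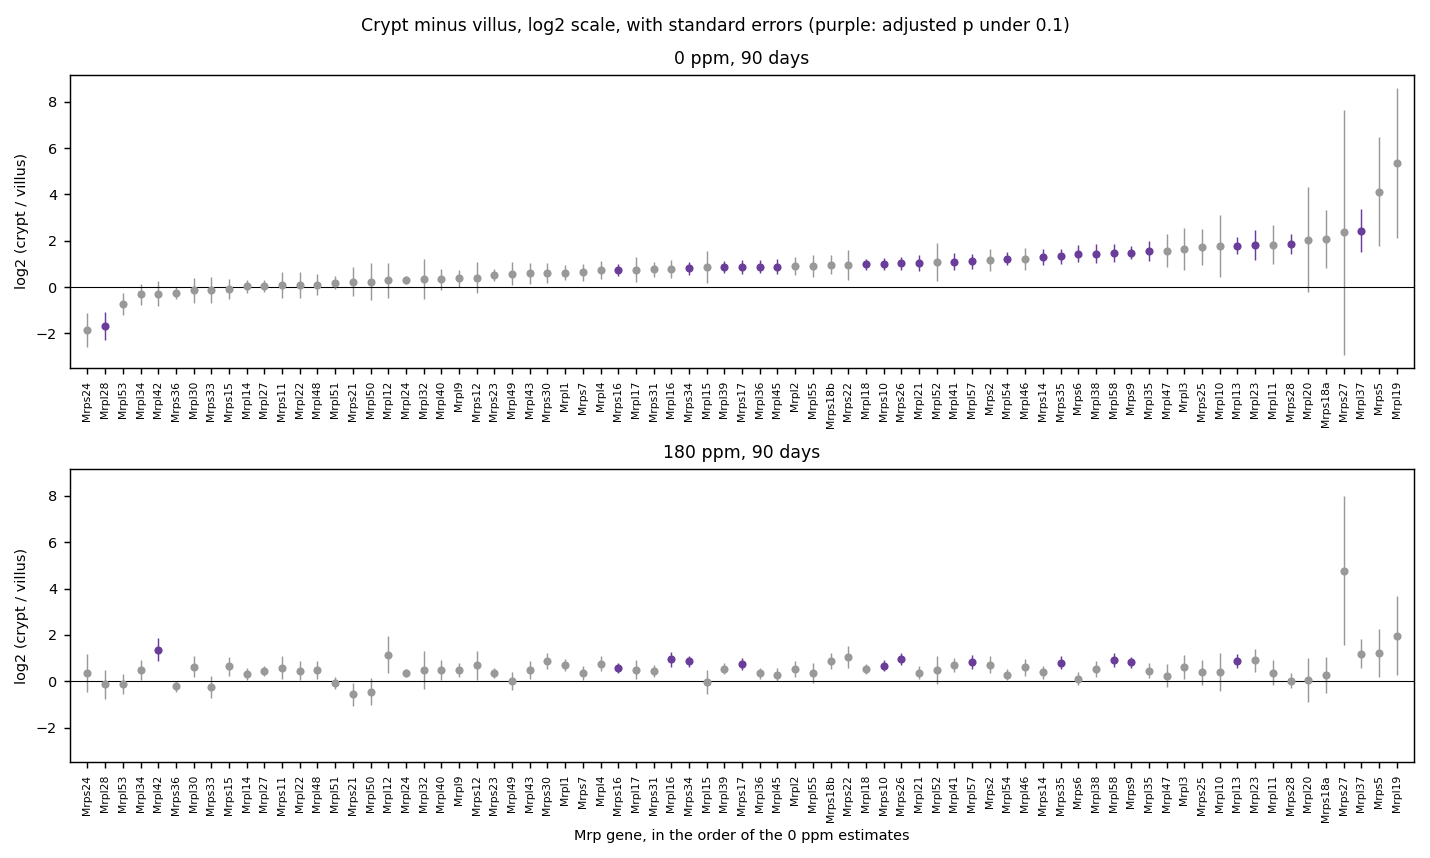
Log2 ratio of crypt to villus for each tested member (points, with bars for the SE), in untreated mice (top) and at 180 ppm (bottom) after 90 days, in the same order of genes, with purple for an adjusted p under 0.1. Of the 75 members 25 were called in untreated mice and 12 at 180 ppm, and all but Mrpl28 of these were higher in crypts.

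Few members differed by duration in untreated mice. No member differed between 90 and 7 days in untreated crypts, with 5 at an unadjusted p under 0.05, none by DESeq2 and 0.0368% of all genes called. In untreated villi Mrpl54 (−1.38 ± 0.28), Mrpl13 (−1.30 ± 0.38), Mrps9 (−0.90 ± 0.28) and Mrpl58 (−1.23 ± 0.39) were lower at 90 days (1.88% of all genes), and Mrpl28 was higher (3.11 ± 0.77, edgeR adjusted p = 0.0202, against 0.647% of all genes). Without mice 48 and 49 none was called. With the 0.1 ppm groups in their place none was called, and Mrpl28 turned to −0.23. The effect of 180 ppm in villi was larger at 90 than at 7 days for Mrps6 (difference 1.78 ± 0.48, edgeR adjusted p = 0.0625) and Mrpl54 (1.39 ± 0.38, edgeR adjusted p = 0.0633), with 0.937% of all genes called larger. Both differences use the untreated 90-day villi, whose depth and detected probes were low, and both calls were lost with either of these as a covariate and without mice 48 and 49. In crypts no member passed this test by edgeR or DESeq2, with 9 at an unadjusted p under 0.05 and 0.132% of all genes called.

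Other genes of mitochondrial translation were read from lists fixed by function. At 180 ppm for 90 days in villi, Ptcd3 was the only one called of 5 mitoribosomal proteins with other names (1.33 ± 0.34, edgeR adjusted p = 0.00384). Of 15 translation factors 4 were higher and 1 lower. Tufm, the elongation factor that brings tRNA (1.20 ± 0.25), and Tsfm, its recycling partner (1.30 ± 0.27), were higher in villi at 90 days and called higher in the other 3 sets as well. Slirp (1.50 ± 0.28) and Lrpprc (1.24 ± 0.35), which together stabilise mitochondrial messenger RNA, were higher and Mtrf1, named as a release factor, was lower (−2.00 ± 0.80). Of 23 assembly factors 3 were higher, Ngrn, Rcc1l and Mtg1, and of 17 aminoacyl-tRNA synthetases 2, Sars2 (2.14 ± 0.70) and Iars2 (1.03 ± 0.35). These are shares of 13% and 11.8%, near the 9.98% of all genes. In crypts at 90 days 3 translation factors, 2 synthetases and no assembly factor were higher (4.34% of all genes).

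Sars2, which charges serine tRNA, starts head to head with Mrps12, yet Mrps12 was not called (−0.55, edgeR adjusted p = 0.725). Of 21 such pairs tested, 4 members and 4 partners were higher in these villi, and in 1 pair both, Mrpl36 (1.08 ± 0.30) and the complex I subunit Ndufs6 (1.23 ± 0.42). Their exons share bases on opposite strands. In all, 23 members share exon bases with another protein-coding gene.

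Cytosolic ribosomal proteins, which build the ribosomes outside mitochondria, were called more often than the mitochondrial ones at 180 ppm in all sets but 7-day crypts. They were also read at higher levels, with a median sum of 8263 CPM in untreated 90-day villi against 2000.5 CPM for the members. Calls were more frequent at high levels, and the part of level in this difference was not tested. At 180 ppm 58 of 77 were higher in villi and 21 in crypts at 90 days, and 43 and 1 at 7 days, with none lower. The 1 in 7-day crypts is 1.3%, near the 1.16% of all genes. Their median log2 fold change was 1.44 in 90-day villi, beside 0.80 for the mitochondrial members and 0.44 for 75 nuclear-encoded subunits of oxidative phosphorylation, of which 25 were higher there. In 90-day crypts 4 of these subunits were higher and 2 lower (median 0.06), and in 7-day villi and crypts 10 and 0 were higher, with 1 lower in crypts. Of 8 mitochondrially encoded transcripts, the targets of these ribosomes, none was called at 180 ppm in any set by edgeR, with 0, 3, 1 and 4 at an unadjusted p under 0.05 in 7-day crypts and villi and 90-day crypts and villi. DESeq2 counts were not made for this list. Of 11 mitochondrial chaperones and proteases 8 were higher in 90-day villi and 2 in 90-day crypts, including the chaperones Hspd1 (1.62 ± 0.41 in villi) and Hspa9 (1.49 ± 0.29 in villi), and none at 7 days. Of 13 genes of mitochondrial DNA transcription, processing and replication 1 was higher in each set, Elac2 in 3 of them and Tfam in 7-day crypts. Over all genes 9.98% and 4.34% were higher in 90-day villi and crypts, and 2.82% and 1.16% in 7-day villi and crypts. At 90 days 1 call of 13 is therefore near the share of all genes. Ppargc1a, a coactivator of mitochondrial biogenesis, was lower in all 4 sets, by −1.72 ± 0.39 in 7-day crypts and −1.51 ± 0.41 in 90-day villi, and was the only call among 9 regulators.

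**Figure D5:**
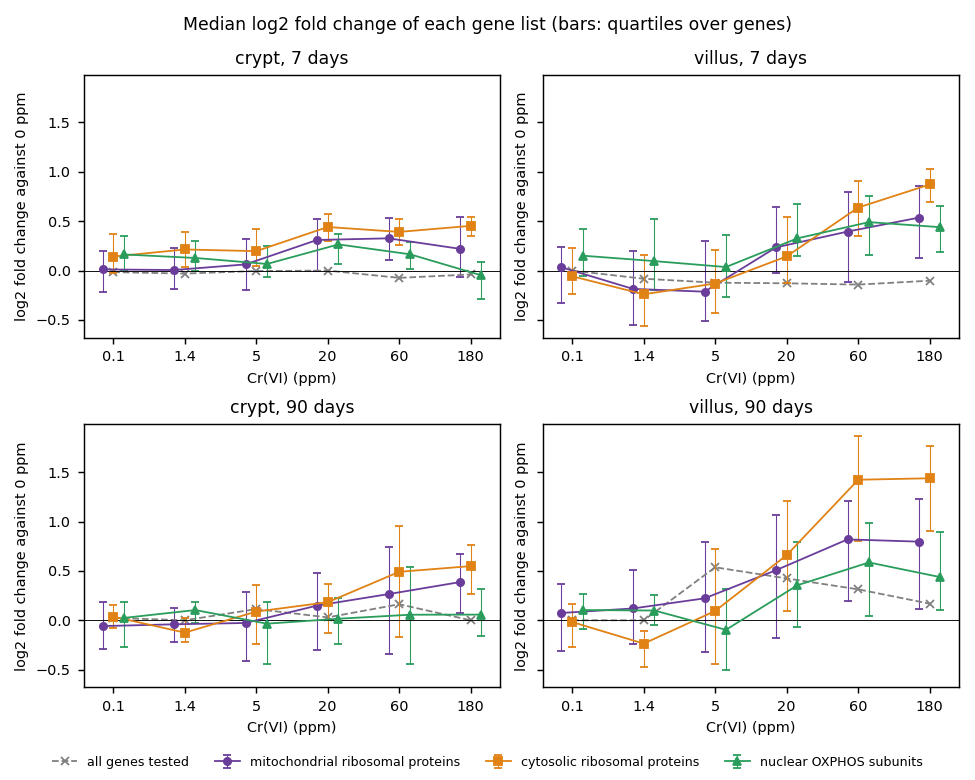
Median log2 fold change against untreated mice, by concentration of Cr(VI), over the mitochondrial ribosomal proteins (purple), cytosolic ribosomal proteins (orange), nuclear-encoded oxidative phosphorylation (OXPHOS) subunits (green) and all genes tested (grey), with bars from the lower to the upper quartile over genes. At 180 ppm for 90 days in villi the medians were 0.80, 1.44, 0.44 and 0.17.

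Markers of other cells also moved. Of all genes, 4.77% were called lower at 180 ppm in 90-day villi and 4.34% higher in 90-day crypts. Shares of all genes called lower in the other sets are not given here, so small counts there cannot be set against them. In villi at 90 days 5 of 9 smooth muscle markers were lower at 180 ppm (summed level 339.5 to 1193 CPM untreated and 339 to 516.8 CPM at 180 ppm), 1 of 12 proliferation markers was higher (8.33%, against 9.98% of all genes, at 197.7 to 486.2 and 264.4 to 444.1 CPM with overlap) and 2 of 10 enterocyte markers were lower (63230 to 85010 and 33670 to 99660 CPM). In crypts at 90 days 3 of 12 proliferation markers were higher (600.4 to 1079 and 1176 to 1940 CPM), 2 of 9 smooth muscle markers lower (1408 to 2361 and 939.5 to 1743 CPM) and 3 of 10 enterocyte markers lower (26290 to 51260 and 14830 to 39910 CPM). Of 10 crypt base and Paneth cell markers none was called in crypts at either duration, and 1 was higher in villi at each, with 1 lower at 90 days and 2 at 7 days. Of 8 plasma and other immune cell markers 2 were higher and 3 lower in 90-day villi, and 2, 3 and 2 were lower in 7-day crypts, 7-day villi and 90-day crypts. Of 14 pancreatic acinar markers none was called in any set, with summed levels from 562 to 197300 CPM over the libraries. At 7 days 6 enterocyte markers were lower in crypts (29530 to 75550 CPM untreated and 10060 to 19600 CPM at 180 ppm, without overlap) and 2 in villi (49240 to 93420 and 28860 to 62110 CPM). In villi 2 smooth muscle markers were lower (391.3 to 1563 and 233.6 to 576.3 CPM). At 7 days no proliferation marker was called by edgeR, but in crypts all 12 had positive log2 fold changes, 6 had an unadjusted p under 0.05, and the summed level went from a median of 895.6 CPM (range 383.3 to 1019) to 1400 CPM (range 1017 to 1772). In 7-day villi that sum was 202.1 to 932.3 CPM untreated and 387.9 to 528.1 CPM at 180 ppm, with 1 marker at an unadjusted p under 0.05. The part of these differences in the members' levels was not tested.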

How the data were processed

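TempO-Seq, a targeted assay that ligates probe pairs on RNA and counts the ligated products, was run on crypt and villus libraries from 71 mice. The authors deposited raw read counts per probe, not normalised, made per the submitters' processing notes with bcl2fastq 2.17.1.14 and Bowtie. The genome build of the probes is not given in the sources used here. Groups came from the sample labels. Counts were filtered (filterByExpr, minimum count 10), TMM-scaled and fitted over all 28 groups in edgeR 4.0.16 (R 4.3.3, glmQLFit and glmQLFTest), with Benjamini-Hochberg adjustment over 26365 probes and a threshold of 0.1. Each gene was read from its probe with the highest total count. The trend used the rank of the concentration. Fold changes used a prior count of 0.125. DESeq2 1.42.0, covariates and left-out libraries were alternatives. Scripts were tested on simulated data.

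The members and lists were chosen with earlier results of these data known. Genes named were, at 180 ppm, the up to 8 called members with the smallest adjusted p in each direction, elsewhere the up to 3, a panel fixed by role (Mrpl3, Mrpl10, Mrpl11, Mrpl12, Mrpl41, Mrps2, Mrps12, Mrps16, Mrps18a, Mrps18b, Mrps22, Mrps30, Mrps36), members that failed the filter, called members against the main direction, and up to 3 genes of each partner list. Genes completing a count, overlapping neighbours and members of all trends were named after their values were seen. The labels give mouse numbers, so the crypt and villus libraries of 66 mice come from the same animal. Their deviations from group means correlated with a median r of 0.0579 (range −0.102 to 0.316), above 0.1 in 14 mice. Mouse was a block in an alternative fit. Totals ran from 1463938 to 7199801 counts, so low-count members have wide errors. Promoters were read from RefSeq windows of GRCm38.p6.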

Additional observations from a re-analysis of the deposited data

Results flagged for a closer look

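For 27 combinations of a member shown in full and a group, over 10 members and 8 groups of 4 or 5 libraries, the highest or lowest library was tested for its distance from the others by Dixon's ratio. For normally distributed values chance passes about 1 in 20 such tests, and 4 passed here. The CPM were not transformed and the combinations share libraries, so that rate may not hold. Mrpl12 in untreated 7-day crypts was 4.554 CPM in mouse 50 and at most 0.4046 CPM in the others (ratio 0.911). Mrpl57 in the same group was 85.27 CPM in mouse 48, with the next at 60.91 CPM (ratio 0.75). Mrpl21 in 90-day villi at 180 ppm was 210.5 CPM in mouse 485, with the next at 107.9 CPM (ratio 0.728). Mrps36 in 7-day villi at 180 ppm was 203.1 CPM in mouse 526, below the next at 344.4 CPM (ratio 0.929). The calls of Mrpl57, Mrpl21 and Mrps36 in these comparisons held when any 1 library was left out, and that of Mrpl12 did not.

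The effect of 180 ppm in villi differed between 90 and 7 days for 2 members by edgeR's test of the difference, with a log2 difference of 1.783 for Mrps6 and 1.389 for Mrpl54. Both were lost under several alternatives, and DESeq2 called 3 members.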

How the results depend on the processing

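Of 228 counts of called members compared over 20 results, 170 were within 1.5-fold of the main count and 58 moved, and of the values of named members 3111 kept their direction and their side of the threshold, 367 were no longer past it, 15 newly passed it and 3 reversed. The cause was not tested. The main counts were, in the order 180 ppm, trend and calls over 0.1 to 60 ppm, 2, 12 and 1 in 7-day crypts, 9, 22 and 14 in 7-day villi, 12, 26 and 22 in 90-day crypts and 25, 39 and 59 in 90-day villi. Calls between untreated crypts and villi were 0 at 7 and 25 at 90 days, and between durations 0 in crypts and 5 in villi. The difference of the 180 ppm effect between durations in villi had 2 calls.

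With DESeq2's Wald test the 7-day crypt counts were 8, 21 and 4, the lower doses in 7-day villi 29, crypt against villus at 7 days 5 and duration in villi 9. With the log10 total as covariate, 180 ppm gave 5 in 7-day crypts, 14 in 7-day villi and 13 in 90-day villi, crypt against villus at 90 days 10 and the duration difference 0. With probes detected as covariate, 180 ppm gave 7 in 7-day crypts and 20 in 7-day villi, lower doses 3 in 7-day crypts and 29 in 90-day villi, crypt against villus at 90 days 11, duration in villi 2 and the duration difference 0. With acinar transcripts as covariate, lower doses in 7-day crypts gave 2 and the duration difference 0. With DESeq2 size factors, 7-day crypts gave 6, crypt against villus at 7 days 2 and the duration difference 0. Without a filter, duration in villi gave 3 and the duration difference 0. With thinned counts, 180 ppm gave 4 in 7-day and 5 in 90-day crypts, crypt against villus at 7 days 1 and the duration difference 0. With the trended dispersion, the 7-day crypt counts were 1, 7 and 0, and 90-day crypts gave 7. With probes summed per gene, the 7-day crypt trend gave 20 and lower doses 3, 7-day villi 18, crypt against villus at 7 days 2, duration in villi 3 and the duration difference 1. With a fit per set, 7-day crypts gave 4 and 19, 7-day villi 2 and 2 at lower doses, and 90-day crypts 27 and 41 at lower doses. Without mice 48 and 49, the 7-day crypt counts were 1, 2 and 0, lower doses in 7-day villi 5, crypt against villus at 7 days 4, duration in villi 0 and the duration difference 0. Shares of all genes called were not computed for these alternatives, the block fit or left-out libraries. Whether the members' counts moved with the calls over all genes was not tested.

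With the 0.1 ppm groups in place of the untreated ones, an alternative chosen after seeing the data, 180 ppm gave 15 in 7-day villi and 2 in 90-day crypts, crypt against villus at 7 days 8 and duration in villi 0. Of all genes 3.01%, 1.48% and 3.27% were higher in the first 3 of these. There Mrps24 at 180 ppm in 90-day villi turned to 0.86, Mrpl28 between untreated crypts and villi at 90 days to 0.33 and Mrpl28 between durations in villi to −0.23.

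With mouse as a replicate block, crypt against villus at 7 days gave 3 and the villus minus crypt difference of the 180 ppm effect at 90 days gave 1, against 0 for both. No other count of calls that the pairing touches moved by over 1.5 times.

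Libraries were left out either as 1 replicate number from all groups at once or singly at 0 or 180 ppm. Over both, the counts at 180 ppm were 1 to 5 in 7-day crypts, 3 to 18 in 7-day villi, 5 to 16 in 90-day crypts and 10 to 28 in 90-day villi. With single libraries only, the lowest were 4 in 7-day villi and 15 in 90-day villi. For the trend the ranges were 5 to 19, 19 to 27, 22 to 28 and 31 to 40, and for lower doses 0 to 8, 3 to 26, 12 to 22 and 35 to 67. Crypt against villus ranged from 0 to 9 at 7 days and 11 to 33 at 90 days, and duration in villi from 0 to 9. Differences of effects were not run with libraries left out. At 180 ppm in 90-day villi Mrps6, Mrps28, Mrpl21, Mrpl54, Mrpl35, Mrpl13, Mrpl18 and Mrps9 were called under all 12 alternatives and every left-out library, as were Mrps6 in 90-day crypts and Mrpl57 and Mrps36 in 7-day villi. Whether greater depth would change the calls among the 37 members below 23.2 CPM was not tested.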
